A study of Mus musculus with 12 samples.

Results

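Imprinted genes are transcribed mainly from the allele inherited from 1 parent. The 33 examined here were chosen by name as known imprinted genes, and each was matched by symbol to 1 of the 54658 genes in the count tables. They lie at 17 imprinted loci, 9 of them with a single gene listed here. By textbook assignment 12 are expressed from the maternal allele, 19 from the paternal allele and 2 (Gnas, Blcap) from either, depending on transcript and tissue. RNA of 9 mammary tumours (genotype Trp53R245W/+) was compared with RNA of 3 preparations of enriched mammary gland epithelium (genotype WT). The tumours arose from a somatic change (R245W) in the p53 gene. All mice were F1 hybrid females of the cross C57BL/6J X BALB/cJ, and ages are not given in the labels. Tumours are called by their label numbers, 1, 4, 5, 14, 17, 20, 21, 24 and 27, and epithelium libraries by 1, 2 and 3.

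Genotype, tumour state and the title prefix of the libraries (R597 for tumours, R688 for epithelium) all followed the group, so they cannot be told apart. Nothing in the labels ties the tumours to separate mice, so p-values measure the spread between these samples. Library totals were 19695318 to 33600076 gene counts. Levels are counts per 1000000 (CPM), scaled between libraries. A gene with 0 counts may still hold up to 3 by counting error alone, which is 0.0987 to 0.274 CPM, the most in tumour 4. Tumour 4 stood apart, with 51.97% of alignments not unique and 22.58% of gene counts in Rn7sk. The epithelium libraries held luminal and basal epithelial markers (summed levels of 3060 to 4560 CPM over 12 luminal and 1410 to 1950 CPM over 10 basal genes). They also held lymphocyte markers, at 453 to 515 CPM summed over 10 T and NK cell genes and 694 to 949 CPM over 8 B cell genes. In tumours these lymphocyte sums were 4.09 to 38.1 and 4.5 to 79.4 CPM, and all 10 and all 8 genes fell (edgeR).

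Imprinting is set in the germ line as DNA methylation of control regions, and each control region governs the neighbouring genes of its cluster. Many paternally expressed members promote fetal and placental growth (Igf2, Peg3, Mest, Dlk1), and several maternally expressed members restrain it (H19, Igf2r, Cdkn1c, Phlda2, Grb10). The zinc finger protein ZFP57 protects the methylated copy of many control regions by binding methylated TGCCGC. Gene counts do not separate the alleles, so a higher count does not show which allele it came from.

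Sequences are shown for the clusters whose members moved together from tumour to tumour. The RefSeq promoter table (GRCm38.p6) matched 28 of the 33 genes, with 41 windows of 300 bases that run from 250 before to 50 after each start. TGCCGC was searched on both strands (GCGGCA on the other), and 11 of the 41 windows (26.8%) held it, as did 3809 of all 32817 promoter windows (11.6%). Windows can overlap, as those of Mest at chr6:30737800 and chr6:30737803 do, and both of these are counted as holding the motif. The median number of CG dinucleotides was 13 in the windows of the imprinted genes and 7 in all windows. TGCCGC itself holds a CG, and the shares were not adjusted for the number of CG. Peg3 and Usp29 start head to head, and the bases between their RefSeq starts (chr7:6730420-6730582, plus strand) hold no TGCCGC. The interval is shown with its 5 CG dinucleotides in capitals.
Peg3 to Usp29: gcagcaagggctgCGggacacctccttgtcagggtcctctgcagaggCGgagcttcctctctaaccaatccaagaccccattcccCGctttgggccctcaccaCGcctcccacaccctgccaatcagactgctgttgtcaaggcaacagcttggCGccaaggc
The bases upstream of the Meg3 start (chr12:109540746-109540995, plus strand) hold the motif once, as GCGGCA in capitals.
Meg3 upstream: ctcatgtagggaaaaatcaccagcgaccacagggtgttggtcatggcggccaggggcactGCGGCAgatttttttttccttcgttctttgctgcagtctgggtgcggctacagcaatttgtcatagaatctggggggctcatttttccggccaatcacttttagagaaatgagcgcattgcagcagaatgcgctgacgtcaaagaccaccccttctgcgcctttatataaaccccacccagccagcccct
A match is a description of the letters and was not tested for binding.

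MicroRNAs lie within the spans of the noncoding genes H19 (2 mature sequences), Meg3 (3), Rian (6) and Mirg (26) and of the coding genes Mest (2) and Igf2 (2). Those below are examples from genes that were high in single tumours, with the seed (bases 2 to 8) in capitals.
miR-675-5p of H19: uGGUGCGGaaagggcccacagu
miR-335-5p of Mest: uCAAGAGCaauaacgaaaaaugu
miR-770-5p of Meg3: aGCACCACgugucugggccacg
miR-370-3p of Rian: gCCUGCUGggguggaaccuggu
miR-410-3p of Mirg: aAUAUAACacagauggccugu
miR-453 of Mirg: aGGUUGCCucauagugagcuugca
miR-496a-5p of Mirg: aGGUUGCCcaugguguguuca
The last of these share the seed GGUUGCC, the only seed shared by more than 1 of the mature sequences in these genes. Mature microRNAs were not measured here, since these libraries are made from fragments of longer RNA.

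The comparison of tumours with epithelium asked how imprinted gene expression stood in tumours with mutant p53 against that in normal mammary epithelium. Mest and Phlda2 rose in tumours, and Rasgrf1, Zim1, Ndn and Inpp5f fell. These 6 were 19.4% of the 31 imprinted genes tested, beside 20.3% of all 21456 genes tested (edgeR quasi-likelihood test, adjusted p under 0.05 over all genes). The 2 that rose stand beside 8.89% of all genes called higher and the 4 that fell beside 11.4% called lower, so the imprinted genes were called about as often as genes in general. Igf2 and Magel2 had too few counts to be tested. The median log2 fold change, tumour over epithelium, was 0 over the 31 genes and 0.17 over all genes. Of 12 maternally expressed genes tested, 1 rose and 1 fell (median 0.1), and of 17 paternally expressed genes 1 rose and 3 fell (median -0.32). Changes thus went in both directions within both classes.

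**Figure D1:**
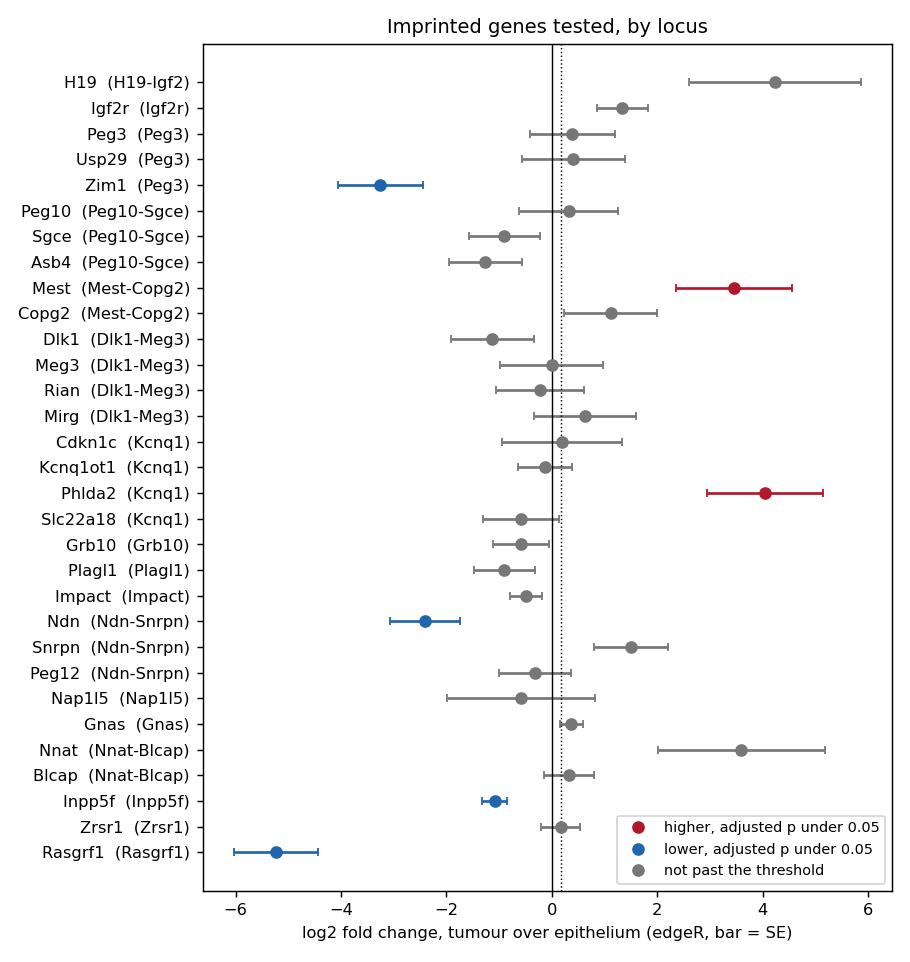
Log2 fold change, tumour over epithelium, of the 31 imprinted genes tested, with bars for the standard error and the locus in brackets; the dotted line is the median of all genes (0.17). Phlda2 and Mest in red rose, while Rasgrf1, Zim1, Ndn and Inpp5f in blue fell, and H19 and Nnat lie far to the right with wide errors.

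Rasgrf1, a guanine nucleotide exchange factor for Ras that is paternally expressed in neonatal brain (chr9:89909908-90026977, GRCm38), had the largest change of the 6. It was at 53.7, 34.5 and 87 CPM in epithelium libraries 1, 2 and 3, and at 0.231, 0.598 and 6.9 CPM in the lowest, median and highest tumour. All 9 tumours lay below all 3 epithelium libraries, and tumour 27 was the highest of them. The log2 fold change was -5.23 (SE 0.8, edgeR adjusted p = 0.000679). Fewer cells of a type and less RNA per cell cannot be told apart in bulk tissue. The lymphocyte marker sums given above moved the same way as Rasgrf1, and their part in the result was not tested.

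Zim1, a maternally expressed zinc finger gene beside Peg3 (chr7:6671269-6696450), was at 4.4, 6.26 and 5.54 CPM in epithelium and from 0 through a median of 0.466 to 1.31 CPM in tumours. Tumour 4 had no count of it, and again no tumour reached the epithelium. Its log2 fold change was -3.25 (SE 0.81, edgeR adjusted p = 0.014). Ndn encodes necdin, a growth suppressor best known in neurons (chr7:62346569-62350262), and was at 11.1, 9.04 and 11.8 CPM in epithelium. The tumours ran from 0.182 CPM in tumour 27 through a median of 1.46 to 7.26 CPM in tumour 21, all under the epithelium. Ndn fell by 2.4 on the log2 scale (SE 0.66, edgeR adjusted p = 0.0232). Endothelial markers were lower as well (6 of 10 called, summed 209 to 829 CPM in tumours and 955 to 1240 CPM in epithelium), and whether they bear on Zim1 or Ndn was not tested. The call of Zim1 was lost without epithelium library 2 or 3 (edgeR adjusted p = 0.0576 and 0.052), and that of Ndn without any 1 epithelium library (0.0631 to 0.0867) or without tumours 5 and 24 (0.0561).

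Inpp5f, a phosphoinositide phosphatase with a short imprinted brain transcript (chr7:128611328-128696425), changed by less but with little spread. It was at 59.9, 59.8 and 57.5 CPM in epithelium and at 20.1, 28.4 and 38.9 CPM in the lowest, median and highest tumour. The groups were again separate, and the log2 fold change was -1.08 (SE 0.24, edgeR adjusted p = 0.0064). Gene counts do not tell the imprinted transcript from the biallelic one. Zim1, Ndn, Inpp5f and Rasgrf1 were the 4 imprinted genes with every tumour below every epithelium library, a pattern that 14.1% of all genes showed.

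Mest and Phlda2 rose, but not in every tumour. Mest, a paternally expressed hydrolase-like gene of embryonic mesoderm (chr6:30723547-30748465), was at 2.94, 5.42 and 1.56 CPM in epithelium. In tumours it ran from 3.69 CPM in tumour 14 through a median of 15.5 to 105 CPM in tumour 1, with 98.8 CPM in tumour 20. Tumour 14 lay within the epithelium range and the other 8 above it. The log2 fold change was 3.45 (SE 1.1, edgeR adjusted p = 0.0425). The Mir335 hairpin gene, which lies within Mest, had 0.42 to 0.532 CPM in tumours 1, 5, 20 and 27, which held the most Mest, and at most 0.182 CPM in the other tumours and 0.0695 CPM in epithelium. The call of Mest was lost without any 1 epithelium library (edgeR adjusted p from 0.0981 to 0.169) without tumour 5, 20 or 27 (from 0.051 to 0.0541), and with no filter on low counts (0.059).

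Phlda2, a maternally expressed restrainer of placental growth (chr7:143501545-143503150), was at 0.346, 0.417 and 0.338 CPM in epithelium, from 10 to 12 counts a library. It ran from 0.373 CPM in tumour 21 through a median of 2.94 to 17.4 CPM in tumour 1, and tumour 21 was the only one within the epithelium range. The log2 fold change was 4.04 (SE 1.1, edgeR adjusted p = 0.0215). That call did not hold without any 1 epithelium library (edgeR adjusted p from 0.0867 to 0.0978).

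**Figure D2:**
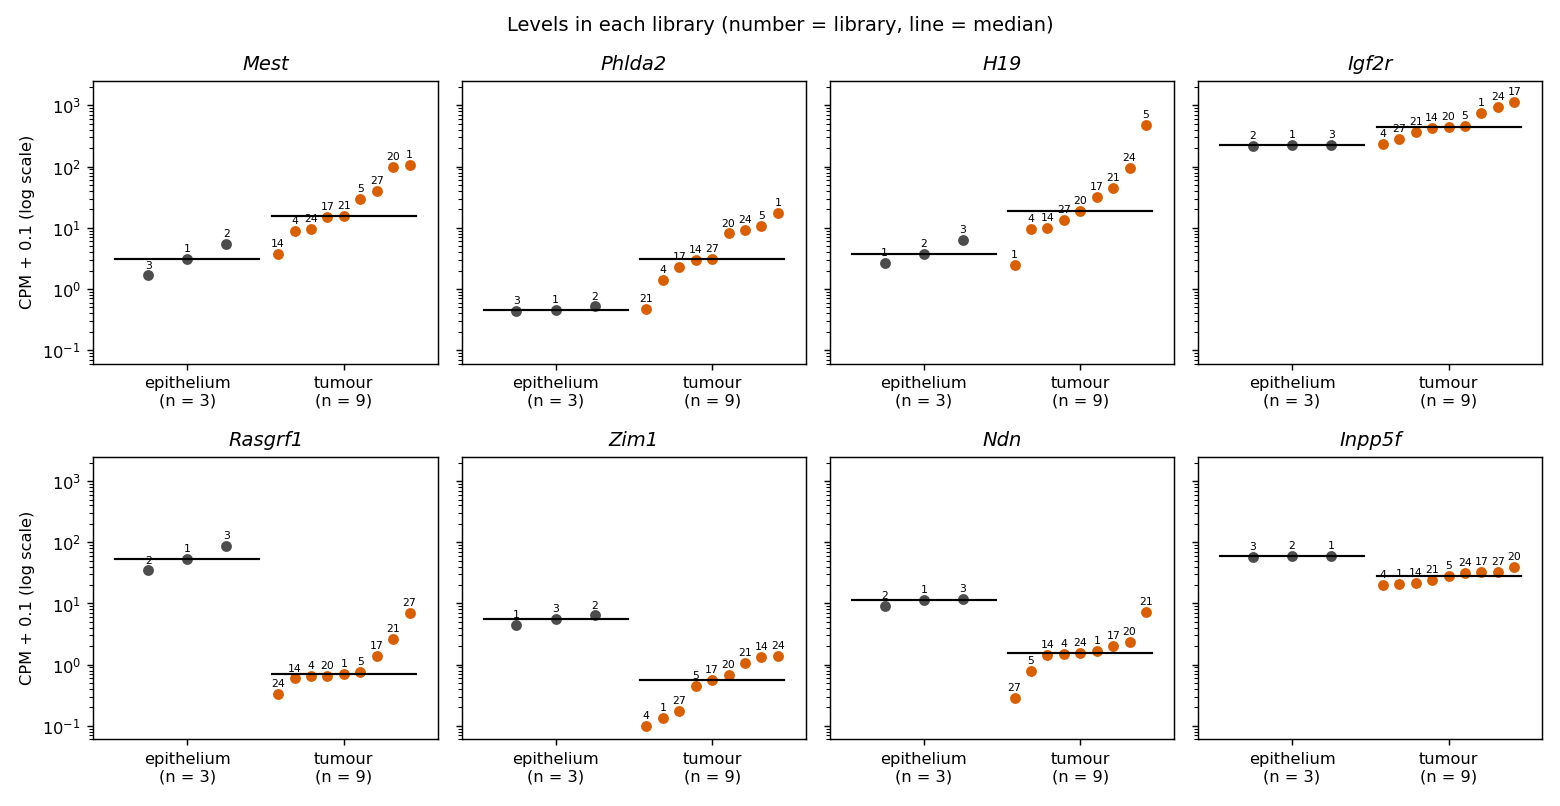
CPM plus 0.1 on a log scale of 8 imprinted genes in each of 3 epithelium libraries (grey) and 9 tumours (orange), with library numbers at the points and lines at the medians. In the lower row no tumour reaches the epithelium, while in the upper row Mest, Phlda2 and H19 each have a tumour within or below the epithelium range.

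Igf2r was higher in every tumour and H19 in 8 of 9, without passing the edgeR test. Both passed by other methods, under which more of all genes were called, as given in the last section. Igf2r, the maternally expressed receptor that clears IGF2, was at 223, 215 and 227 CPM in epithelium and at 238, 444 and 1140 CPM in the lowest, median and highest tumour. It was the only imprinted gene with every tumour above every epithelium library, as 10.2% of all genes were, although tumour 4 lay just above. Its log2 fold change was 1.34 (SE 0.48, edgeR adjusted p = 0.0638, or 0.0342 without tumour 4 and 0.0473 without tumour 27). H19, a maternally expressed noncoding RNA that shares enhancers with Igf2 (chr7:142575529-142578143), was at 2.53, 3.58 and 6.29 CPM in epithelium. It ran from 2.33 CPM in tumour 1 through a median of 18.9 to 479 CPM in tumour 5, and 8 of 9 tumours lay above the epithelium. The log2 fold change was 4.24 (SE 1.63, edgeR adjusted p = 0.0818), and 2.76 (adjusted p = 0.0718) without tumour 5.

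Igf2 itself, the paternally expressed growth factor of the same locus, did not exceed 0.21 CPM in any library, a total of 8 counts in epithelium and 7 in tumours. Of those 7, tumour 5 had 6 and tumour 24 had 1, the tumours with the most H19. Other gene models cover 64.5% of its exonic bases (Gm49394 on the same strand, Igf2os on the other), so reads there could be counted as ambiguous. Gm49394 reached 0.829 CPM (in tumour 21) and Igf2os 0.21 CPM. Among 9 genes within 1 Mb of H19 that are on neither list of imprinted genes used here, the median log2 ratio of tumour 5 to the median of the other tumours was 0.98 (from -0.06 to 3.39), against 4.91 for H19. With the imprinted genes of the wider list described last, it was 0.54 over 14 genes.

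Most of the other imprinted genes were not called. Per kilobase of exon, Igf2r and Gnas had the highest levels, with medians of 47.7 and 41.3 CPM per kb in tumours and 23.9 and 32.1 in epithelium. Gnas, which encodes the stimulatory G protein alpha subunit, was at 359, 366 and 357 CPM in epithelium and at 352, 462 and 602 CPM in the lowest, median and highest tumour. The groups overlapped by tumour 14, and the log2 fold change was 0.37 (SE 0.22, edgeR adjusted p = 0.234). Snrpn, a splicing factor gene of the Prader-Willi region, was at 1.7, 1.53 and 2.06 CPM in epithelium and between 0.547 CPM (tumour 4) and 10.9 CPM (tumour 24) in the tumours. It was above all epithelium in 8 of 9 tumours, with a log2 fold change of 1.51 (SE 0.7, edgeR adjusted p = 0.14, or 0.0423 without tumour 4). Other models share 34.1% of its exonic bases, so its counts may be incomplete. Magel2, of the same region, was at 0 counts in every library.

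The imprinted genes varied widely from tumour to tumour. Of the 20 whose tumour mean reached 5 CPM, 14 (70.0%) had a tumour at least 4-fold from the median of the other 8. Among all 12526 genes at that level, 27.4% did. The level is a mean over the same tumours, so a single high tumour can bring a gene in. With no such level, 24 of the 31 tested (77.4%) had such a tumour, beside 35.0% of all 21456 genes. For genes at the level, the median SD of log2 CPM over the tumours was 1.24 for the imprinted genes and 0.67 for all genes. Over the epithelium libraries it was 0.11 and 0.12. These are descriptions with no test, because the genes were listed with earlier results of these data known. Different genes stood out in different tumours, as the map of tumour ratios shows.

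**Figure D3:**
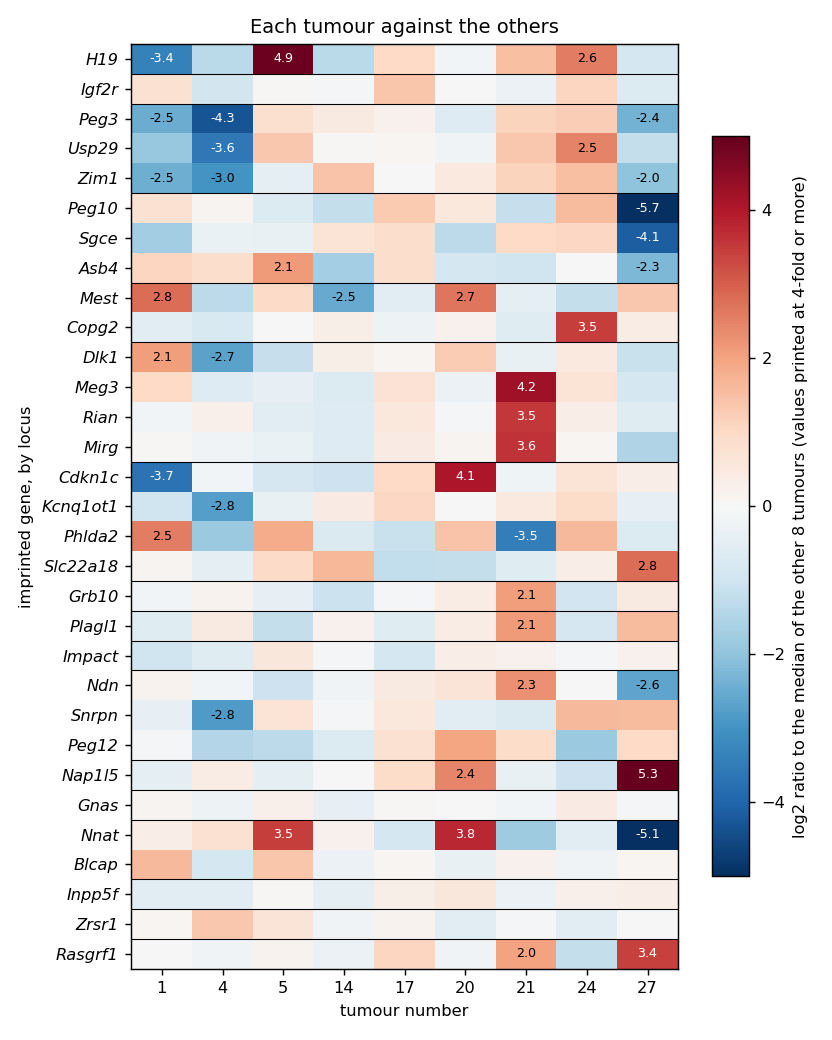
Log2 ratio of each tumour to the median of the other 8 for the 31 imprinted genes tested (prior count of 2), in rows by locus, with values of 4-fold or more printed. Tumour 21 is red in Meg3, Rian and Mirg, tumour 27 blue in Peg10 and Sgce, tumour 24 red in Copg2, and tumour 17 has no printed value.

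Tumour 21 had 7 imprinted genes at least 4-fold above the other tumours (Meg3, Rian, Mirg, Grb10, Plagl1, Ndn and Rasgrf1) and 1 below (Phlda2), beside 5.44% and 1.08% of all genes. Tumour 27 had 3 above (Slc22a18, Nap1l5, Rasgrf1) and 7 below (Peg3, Zim1, Peg10, Sgce, Asb4, Ndn, Nnat), beside 5.17% and 2.24%. In tumour 1, Mest, Dlk1 and Phlda2 were high, and H19, Peg3, Zim1 and Cdkn1c were low, beside 4.08% and 6.8% of all genes. Tumour 4, the library that stood apart, had 6 low genes and no high one, beside 5.2% and 7.08% of all genes. Tumour 17 had none in either direction, beside 3.61% of all genes above and 0.862% below. Tumour 14 had no high gene and a single low one, Mest, beside 2.9% and 1.53%. Tumours 5 (H19, Asb4, Nnat), 20 (Mest, Cdkn1c, Nap1l5, Nnat) and 24 (H19, Usp29, Copg2) had only high genes. Of all genes, 2.79%, 3.6% and 2.64% were that high in these tumours, and 2.75%, 2.46% and 4.05% that low.

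The clearest joint pattern lay at the Dlk1-Meg3 locus on chromosome 12. Meg3, Rian and Mirg are maternally expressed noncoding RNAs on the same strand. Rian and Mirg lie beyond the Meg3 start shown above and have RefSeq starts of their own. The paternally expressed Dlk1 encodes a Notch-like membrane protein. Meg3 was at 18.5, 25.2 and 24 CPM in epithelium, at 5.05 to 14.2 CPM in 8 tumours and at 135 CPM in tumour 21. Rian was at 29.5, 36.8 and 33.5 CPM in epithelium, at 9.05 to 18.6 CPM in 8 tumours and at 153 CPM in tumour 21. Mirg was at 2.63, 3.75 and 3.62 CPM in epithelium, at 0.835 to 3.14 CPM in the same 8 tumours and at 29.2 CPM in tumour 21. Tumour 21 alone was therefore above the epithelium in all 3, and for Meg3 and Rian the other 8 tumours lay below it. Dlk1, at 0.29 CPM in tumour 21, was not high there and reached at most 1.66 CPM in any tumour.

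With all tumours, the log2 fold changes were 0 for Meg3 (SE 0.98, edgeR adjusted p = 1) and -0.22 for Rian (SE 0.84, adjusted p = 0.876). Without tumour 21 they were -1.39 for Meg3 (edgeR adjusted p = 0.0136) and -1.34 for Rian (adjusted p = 0.00451). That tumour was left out because it was the highest in both genes, so this fit is a description and does not test a fall. Log2 ratios of tumour 21 to the median of the other tumours were 4.22 for Meg3, 3.55 for Rian, 3.61 for Mirg and -0.39 for Dlk1. Among the 28 other genes within 2 Mb whose mean reached 5 CPM, the median was 0.14 (from -1.44 to 4.39), and 1 of them, Hhipl1, was also past 4-fold. Over the 9 tumours, log2 CPM of Meg3 and Rian had a Pearson r of 0.96 (exact permutation p = 0.00529, adjusted over 7 pairs 0.0185) and a Spearman rho of 0.75 (exact permutation p = 0.0255, adjusted 0.0892). For Rian and Mirg r was 0.97 (exact permutation p = 0.000223, adjusted 0.00156) and rho 0.9 (exact permutation p = 0.00203, adjusted 0.0142). Without the 2 tumours farthest from the median, tumour 21 and 1 other, r was 0.79 for both pairs.

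Tumour 21 also held the most fibroblast marker RNA, 46400 CPM summed over 10 genes, against 1780 to 11000 CPM in the other tumours and 4290 to 6190 CPM in epithelium. None of those 10 genes was called between the groups and none was at 0, and their part in the high Meg3, Rian, Mirg, Grb10, Plagl1 and Ndn levels of tumour 21 was not tested. Grb10, an adaptor that restrains insulin receptor signalling, was at 65.5, 58.3 and 60.6 CPM in epithelium, at 15.5 to 41.5 CPM in 8 tumours and at 132 CPM in tumour 21. Like Meg3, it was lower than epithelium in every tumour but 21, with a log2 fold change of -0.59 (SE 0.53, edgeR adjusted p = 0.442). In the fit without tumour 21, again picked because that tumour was the highest, the log2 fold change was -1.06 (edgeR adjusted p = 0.0262). Plagl1, a zinc finger growth suppressor, was highest in tumour 21 as well, at 13.1 CPM, above the epithelium range of 7.41 to 10.5 CPM.

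**Figure D4:**
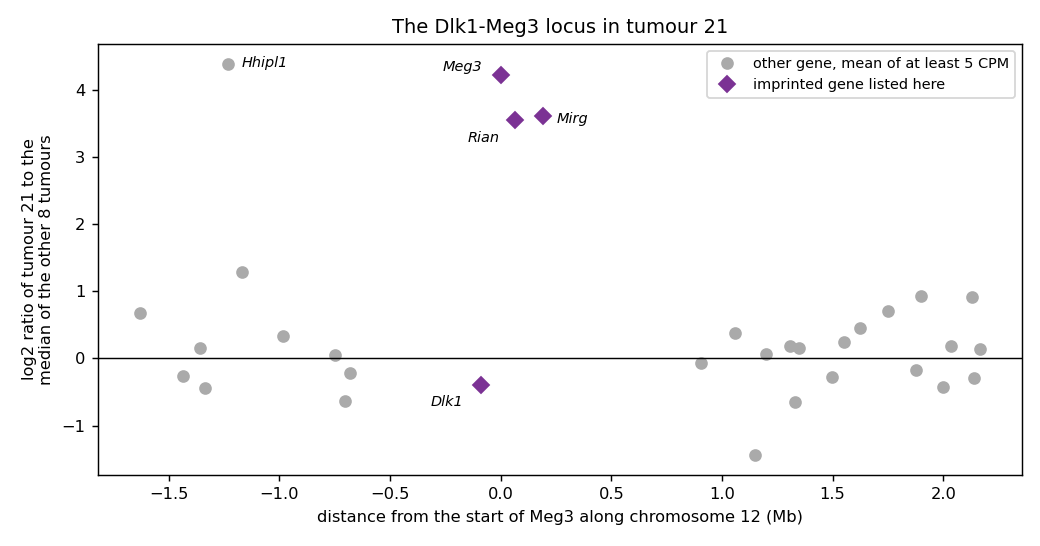
Log2 ratio of tumour 21 to the median of the other 8 tumours for genes whose mean reached 5 CPM (grey) and the listed imprinted genes (purple), by distance in Mb from the start of Meg3. Meg3, Rian and Mirg lie between 3.55 and 4.22, Dlk1 at -0.39, and most neighbours near 0.

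The members on proximal chromosome 6 were compared in tumours 5 and 24, where a stretch of this arm with the receptor gene Met was raised. Met itself was at 15500 CPM in tumour 5, 4890 CPM in tumour 24 and a median of 138 CPM in the other 7. The 81 other genes between Sgce and Copg2 whose mean reached 5 CPM had a median log2 ratio to the other 7 tumours of 1.02 in tumour 5 and 2.56 in tumour 24. Their quartiles were 0.38 and 3.24 in tumour 5 and 1.74 and 3.29 in tumour 24. Most of the highest ratios of tumour 5 lay within 13 Mb of Peg10, and Mest and Copg2 lay 26 Mb from it. Genes elsewhere in the genome had medians of 0.07 and 0.02. The 5 imprinted genes examined here had medians of 0.17 and 1, and their ratios ran in both directions in each tumour. Of the wider list of imprinted genes described last, Ppp1r9a, Pon2 and Pon3 are among the 81, with ratios of -0.21, 3.72 and 1.85 in tumour 5 and of 3.26, 1.9 and 1.64 in tumour 24. The medians of the other 78 genes were again 1.02 and 2.56.

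Copg2, a coat protein gene of vesicle transport (chr6:30747554-30896794), was at 62.3, 65.1 and 59.1 CPM in epithelium, at 42 to 84.3 CPM in 8 tumours and at 709 CPM in tumour 24. That tumour alone stood out, with a log2 ratio of 3.54, and tumour 5 had 0.17. The 10 neighbouring genes on neither list of imprinted genes, taken equally from both sides, had medians of 1.49 in tumour 24 and 0.5 in tumour 5. The tumour 24 median also joins unlike sides. Neighbours before Mest had ratios of 2.56 to 3.46 there, near that of Copg2, and those beyond Copg2 had -0.61 to 0.42. Mest, which overlaps the end of Copg2 on the opposite strand, had ratios of -0.72 in tumour 24 and 0.91 in tumour 5. The tumours with the most Mest were instead 1 and 20, where 15 genes within 1 Mb had median ratios of -0.11 and -0.36. In tumour 24 the gene Cep41, just before Mest, had a ratio of 3.46, and Lncpint, beyond Copg2, had one of -0.61. Raised genes thus gave way to unraised ones beyond Copg2, and Mest lay between the raised Cep41 and Copg2. Over all tumours Mest and Copg2 had an r of -0.24 (exact permutation p = 0.551).

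At the proximal end, Asb4, a maternally expressed ubiquitin ligase adaptor, had ratios of 2.41 in tumour 5 and 0.6 in tumour 24, at 2.49 and 0.653 CPM. Peg10, a retrotransposon-derived placental gene, had -0.54 and 1.3, and its neighbour Sgce, which encodes epsilon-sarcoglycan, -0.05 and 1. The 10 neighbouring genes on neither list, again taken equally from both sides, had medians of 1.3 in tumour 5 and 1.92 in tumour 24 around Peg10 and Sgce. Around Asb4 the medians were 2.27 and 2.29. Peg10 and Sgce thus lay below the median of these neighbours in both tumours, and Asb4 did in tumour 24 only. That median joins unlike sides. Neighbours before Sgce had ratios of -0.92 to 0.64 in tumour 5 and -0.73 to 2.62 in tumour 24. Those beyond Peg10 had 1.95 to 5.78 and 1.89 to 2.89. Peg10 and Sgce lay within the range of the former and below the latter in both tumours. Casd1, an imprinted gene of the wider list beside Sgce, had ratios of 2.85 and 2.71.

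**Figure D5:**
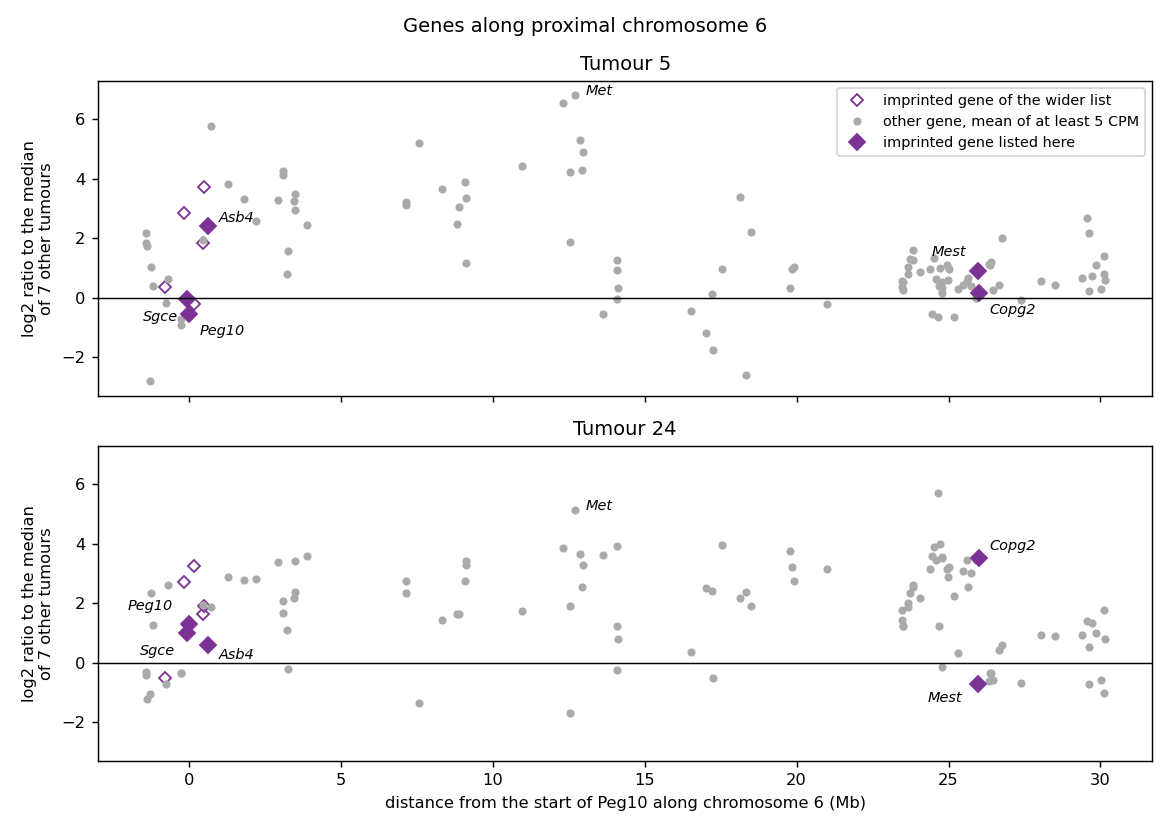
Log2 ratio of tumour 5 (top) and tumour 24 (bottom) to the median of the 7 other tumours along proximal chromosome 6, by distance in Mb from the start of Peg10, for genes whose mean reached 5 CPM (grey), imprinted genes examined here (filled purple) and those of the wider list (open purple). Copg2 is at 3.54 in tumour 24, while Mest is at -0.72 beside it, and Peg10 and Sgce sit below many neighbours in both tumours.

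Peg10 and Sgce also stood out together in tumour 27, in the opposite direction. Peg10 was at 3.5, 2.96 and 2.84 CPM in epithelium and at 1.68 to 8.88 CPM in 8 tumours, but had 0 counts in tumour 27, which allows up to 0.109 CPM. Sgce was at 24.7, 18.8 and 20.6 CPM in epithelium, at 3.69 to 20 CPM in 8 tumours and at 0.653 CPM in tumour 27. Among the 6 genes within 1 Mb that reached that level and are on neither list, the median log2 ratio in tumour 27 was -1.14 (from -2.56 to 0.98), against -4.12 for Sgce, and with the wider list it was 0.05 over 11 genes. Tumour 27 also held the most basal marker RNA (4760 CPM summed over 10 genes, against 219 to 2080 CPM in the other tumours) and the least fibroblast marker RNA (1780 CPM). The part of these cell types in the genes that stood apart in tumour 27 was not tested. Over the 9 tumours the pair had an r of 0.78 (exact permutation p = 0.0663, adjusted 0.155), which was -0.41 without tumours 24 and 27, so the relation rested on those tumours.

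In the Peg3 domain of chromosome 7, the paternally expressed Peg3 and Usp29 share the interval shown above. Peg3, a zinc finger growth regulator, was at 49.9, 69.6 and 51.2 CPM in epithelium and at 4.11, 79.5 and 155 CPM in the lowest (4), median (17) and highest (24) tumour. Tumours 1, 4 and 27 lay below the epithelium, and 5 tumours lay above it. Usp29, a ubiquitin protease gene at low level, was at 0.796, 1.15 and 1.01 CPM in epithelium and ran from 0 counts in tumour 4 to 4.65 CPM in tumour 24. Log2 CPM of the pair had an r of 0.97 over the tumours (exact permutation p = 1.1e-05, adjusted over 8 pairs 8.82e-05) and a rho of 0.97 (exact permutation p = 0.000165, adjusted 0.00132). Without tumours 1 and 4, r was 0.89. This pair was brought in after its values were seen, with a lower minimum of 0.5 CPM in the median tumour in place of 1 CPM. Neither gene was called between the groups (log2 fold changes of 0.39 and 0.41, edgeR adjusted p = 0.764 and 0.793).

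In the Kcnq1 domain, also on chromosome 7, neither of the 2 pairs compared passed the test. Kcnq1ot1 is a long paternal noncoding RNA that silences the domain in cis, and Cdkn1c encodes the cell cycle inhibitor p57. Kcnq1ot1 was at 470, 416 and 447 CPM in epithelium, at 214 to 729 CPM in 8 tumours and at 62.2 CPM in tumour 4. Cdkn1c was at 8.97, 11.5 and 7.78 CPM in epithelium and at 0.266, 3.92 and 65.6 CPM in the lowest (1), median (4) and highest (20) tumour. Tumour 20 was the only tumour above the epithelium in Cdkn1c, and the other 8 lay below it. The 10 genes within 1 Mb of Cdkn1c that are on neither list had a median ratio of -0.81 in tumour 20, against 4.06 for Cdkn1c, and the overlapping antisense model Gm44732 also peaked there, at 1.69 CPM. Cdkn1c was not called between the groups (log2 fold change 0.2, SE 1.14, edgeR adjusted p = 0.916), and without tumour 20 its log2 fold change was -1.26 (adjusted p = 0.171). Its correlation with Phlda2 over the tumours was -0.16 (exact permutation p = 0.698), and that of Phlda2 with Slc22a18 was 0.11 (exact permutation p = 0.772). Slc22a18, a transporter gene, was at 4.02 to 4.48 CPM in epithelium, at 0.72 to 4.81 CPM in 8 tumours and at 10.6 CPM in tumour 27.

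Nnat and Nap1l5, genes best known in neural tissue, were high in 1 or 2 tumours each. Nnat, which encodes a small membrane protein of the endoplasmic reticulum, was at 0.866, 0.834 and 0.947 CPM in epithelium. It was at 34.7 and 43 CPM in tumours 5 and 20, at 1.08 to 5.29 CPM in 6 others and at 0.0363 CPM, a single count, in tumour 27. Tumour 27 was thus the only one below the epithelium, and the log2 fold change was 3.6 (SE 1.58, edgeR adjusted p = 0.122). Blcap, whose intron holds Nnat, had 26.3 to 29 CPM in epithelium and 14.9 to 80.3 CPM in tumours, and its r with Nnat was 0.15 (exact permutation p = 0.71). Nap1l5, a nucleosome assembly gene on chromosome 6, was at 0.97, 1.25 and 0.778 CPM in epithelium, at most 0.626 CPM in 8 tumours and at 4.86 CPM in tumour 27. Without that tumour, left out because it was the highest, its log2 fold change was -2.85 (edgeR adjusted p = 0.0306), and with it -0.58 (adjusted p = 0.794). Neural and Schwann cell markers summed to 150 CPM in tumour 27, within the range of 37.6 to 415 CPM over all tumours, against 253 to 314 CPM in epithelium.

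Few of the remaining genes had a tumour far from the rest. Impact, an inhibitor of the stress kinase GCN2, had 54.7 to 60.8 CPM in epithelium and 22.8 to 62.1 CPM in tumours. Zrsr1, a retrotransposed splicing factor gene, had 27.2 to 30.6 CPM in epithelium and 20 to 71.9 CPM in tumours, with the highest value in tumour 4. Its host Commd1 was also highest there, at 25.5 CPM. Peg12, near Ndn, had 0.778 to 1.63 CPM in epithelium and 0.192 to 2.69 CPM in tumours. None of these 3 genes was called.

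A wider list of imprinted genes also held calls in both directions. Of 54 further imprinted genes in the count tables, 42 were tested, and 3 rose and 7 fell, beside 8.89% and 11.4% of all genes, with a median log2 fold change of 0.37. Those with the smallest adjusted p all fell: Tspan32, a tetraspanin of blood cells (53.3 ± 12.1 CPM in epithelium, SD, n = 3, and 2.78 ± 2.49 CPM in tumours, n = 9; edgeR adjusted p = 0.000181), Adam23 (76.7 and 7.4 CPM, 0.00108), Slc22a3 (3.93 and 0.172 CPM, 0.002) and Zdbf2 (1.89 and 0.182 CPM, 0.00263). The lymphocyte marker sums moved the same way as Tspan32, and their part in it was not tested. Of 26 genes that set or keep imprints, 23 were tested, and 3 rose and 3 fell (median -0.07). Uhrf1, which brings DNMT1 to newly copied DNA, rose from 16.3 ± 2.71 CPM in epithelium (SD, n = 3) to 118 ± 59.1 CPM in tumours (SD, n = 9; log2 fold change 2.86, edgeR adjusted p = 0.00152). Hells, a chromatin remodeller needed for DNA methylation, rose by 2.16 on the log2 scale (edgeR adjusted p = 0.00538). Arid4a, a retinoblastoma-binding protein, fell by 1.31 (edgeR adjusted p = 0.00106), and Smchd1, a chromosomal protein with a role at imprinted clusters, fell by 0.98 (edgeR adjusted p = 0.00158). Zfp57 was not called (log2 fold change 0.65, SE 0.67, edgeR adjusted p = 0.515), at 2.35 CPM in epithelium and 3.67 CPM in tumours.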

How the data were processed

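RNA was extracted with the RNeasy mini kit and made into libraries by the stranded TruSeq method, per the labels. The authors deposited raw counts per gene for each of the 12 libraries, with no normalization. HTSeq 0.11.0, TopHat2 2.1.1 and FastQC 0.11.8 were used on GRCm38, per the submitters' processing notes. Not given in the sources used here are the annotation release, the strand setting and how pairs were counted. Groups and replicate numbers were read from the titles. Positions, exonic lengths and overlaps come from GENCODE mouse release M21 (GRCm38), which matched 54106 of the 54658 genes by symbol. Library totals were 19695318 to 33600076 gene counts, and alignments outside genes made up 8.08% to 32.25% in tumours and 39.90% to 41.51% in epithelium; the 5 summary counts stayed out of library sizes.

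Counts of all 12 libraries were fitted with edgeR 4.0.16 in R 4.3.3 (trimmed mean of M values, filterByExpr on the group, robust quasi-likelihood F test, group only). Genes with an adjusted p (Benjamini-Hochberg, over every gene tested) under 0.05 were called. SE was obtained by dividing the absolute log2 fold change by the root of F. CPM carry no prior count; log2 CPM for correlations and for the test of single values used a prior count of 0.5 and ratios between tumours 2, scaled to library size. Correlations used all 362880 pairings of 9 tumours, two-sided; of 11 listed pairs, 7 had 1 CPM or more in the median tumour of both genes. Neighbouring genes exclude the wider list of imprinted genes where so stated, a choice made after the values were seen. Alternatives used limma 3.58.1 and DESeq2 1.42.0, other scalings, other filters, left-out libraries and the share outside genes as a covariate. The code was tested on simulated data. Other steps used scipy 1.17.1, pandas 2.3.3, matplotlib 3.10.9 and numpy 2.4.6 under Python 3.11.15.

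The imprinted genes, the gene lists, the neighbouring pairs and the tests were chosen with earlier results of these data known. Every library was left out in turn, and the fits quoted for single genes were picked by their values. Calls gained in those fits, as for Igf2r, Snrpn, Meg3, Rian, Grb10 and Nap1l5, are therefore descriptions. All 33 genes are reported; of the 2 further lists, genes with the smallest adjusted p are named, at most 4 from each, and Zfp57, Met, Hhipl1, Cep41, Lncpint, Casd1, Ppp1r9a, Pon2, Pon3 and the overlapping models were named after their values were seen.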

Additional observations from a re-analysis of the deposited data

Results flagged for a closer look

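Dixon's ratio on log2 CPM over the 9 tumours marked a single tumour as far from the other 8 in 9 of the 31 imprinted genes tested (29.0%), as it did in 12% of all 21456 genes (2584). By chance about 1 group in 20 is marked. Tumour 21 was marked in 4 genes, at 135 CPM in Meg3 (5.05 to 14.2 CPM in the other 8), 153 CPM in Rian (9.05 to 18.6 CPM), 29.2 CPM in Mirg (0.835 to 3.14 CPM) and 132 CPM in Grb10 (15.5 to 41.5 CPM). Tumour 27 was marked as the lowest in 2 genes, at 0 CPM in Peg10 (1.68 to 8.88 CPM in the other 8) and 0.653 CPM in Sgce (3.69 to 20 CPM). Tumour 24 was marked in Copg2, at 709 CPM against 42 to 84.3 CPM. Tumour 4, the library with the most alignments that were not unique, was marked as the lowest in Kcnq1ot1, at 62.2 CPM against 214 to 729 CPM, and in Snrpn, at 0.547 CPM against 2.57 to 10.9 CPM.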

How the results depend on the processing

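The count of imprinted genes that rose (2) was 1 with no filter on low counts, 5 by DESeq2, 6 by limma-voom, 1 without tumours 5 and 24, 0 with the share outside genes as a covariate and 0 to 4 over libraries left out in turn (0 without any 1 epithelium library, 1 without tumour 5 or 20, 4 without tumour 4). The count that fell (4) was 7 by DESeq2, 12 by limma-voom, 0 with the covariate and 2 to 7 with libraries left out (2 without epithelium library 2 or 3, 7 without tumour 21). All genes called moved too, from 20.3% to 26.4%, 49.5% and 3.07% under DESeq2, limma-voom and the covariate, and to between 8.97% and 9.32% without an epithelium library. The median log2 fold change (0) was -0.54 by DESeq2, -0.63 by limma-voom, 1.44 with the covariate and -0.38 to 0.14 with libraries left out. With the covariate, whose values do not overlap between the groups, the called Zim1 turned to 0.24 (edgeR adjusted p = 0.946). Among uncalled genes the covariate turned Peg10 (-0.2), Dlk1 (1.54), Rian (1.44), Kcnq1ot1 (1.94), Grb10 (0.38), Plagl1 (0.01), Impact (0.11), Peg12 (1.5), Nap1l5 (0.26) and Zrsr1 (-1.1); limma-voom turned Peg3 (-0.2), Usp29 (-0.42), Peg10 (-0.63), Mirg (-0.28) and Cdkn1c (-1.19); and DESeq2 turned Mirg (-0.59) and Cdkn1c (-1.19). Usp29 turned without tumours 5 and 24 (-0.45). With single libraries left out, Kcnq1ot1 (-0.27 to 0.03) and Zrsr1 (-0.06 to 0.24) turned without tumour 4, Cdkn1c (-1.26 to 0.41) without tumour 20, Mirg (-0.63 to 0.77) without tumour 21 and Usp29 (-0.14 to 0.58) without tumour 24. Genes that passed the threshold by DESeq2 but not in the main fit were, with its adjusted p, H19 (2.7, 0.00496), Igf2r (1.34, 0.0198), Nnat (3.61, 0.0125), Meg3 (-1.31, 0.00304), Rian (-1.26, 0.000326) and Nap1l5 (-2.67, 0.0229). DESeq2 was run at its default settings, which replace outlying counts in a group of this size. Its values for H19, Meg3, Rian and Nap1l5 lay near those of edgeR without tumour 5 (2.76), 21 (-1.39 and -1.34) and 27 (-2.85). Those of Cdkn1c and Mirg lay near edgeR without tumours 20 (-1.26) and 21 (-0.63). DESeq2 may thus not have used the values of these tumours as counted. Of these genes, H19 (limma-voom adjusted p = 0.0109), Igf2r (0.00163), Rian (0.045) and Nap1l5 (0.00682) also passed by limma-voom. Nnat (limma-voom adjusted p = 0.109) and Meg3 (0.0735) did not. The correlated pairs (2) were 1 without tumours 5 and 24 and 1 to 2 with a tumour left out (1 without tumour 21). Of 649 values of single genes under the alternatives, 578 kept their direction and side of the threshold (Meg3, at 0, has no direction to keep), 22 lost and 25 gained a call, and these 24 turned. Upper quartile scaling moved the median of all genes from 0.17 to 0.07. No paired analysis was possible because tumour and epithelium labels share only the number 1. Genes under about 1 CPM, such as Igf2, Dlk1 and Usp29, are limited by depth.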
